A study of Homo sapiens with 8 samples.

Results

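The homologous recombination and Fanconi genes examined here were 39 named genes, taken as the rows of the deposited HT29 table that carry those names. All 39 were found among the 38148 genes of the table, and all 39 passed the filter of a mean of 1 RPM (the read count scaled to library size), which left 14219 genes tested. HT29 cells derive from a human colorectal tumour. They were left untreated or given selumetinib, an inhibitor of the ERK-activating kinase MEK, at 1 μM over 24 h, then glyoxal-fixed and sorted on cyclin B1, the CCNB1 protein that builds up towards G2, giving untreated CCNB1-negative, untreated CCNB1-positive, selumetinib CCNB1-negative and selumetinib CCNB1-positive groups of 2 libraries each. The fractions are defined by a gate on 1 protein in 1 unsynchronized line, so each holds cells of more than a single stage.

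The sample labels are at odds. In all 8 cases title and description disagree on both treatment and fraction, each naming the reverse of the other, and the labels give another growth medium than the methods. The groups used here follow the descriptions, which are also the column names. If the titles were right, the response given below for CCNB1-negative cells would, with the opposite sign, be that of CCNB1-positive cells, and vice versa. The untreated and treated contrasts of the fractions would likewise swap and turn their sign, and the difference between both responses would not alter. On the log2 scale, CCNB1 stood at 11.66 and 12.01 in untreated CCNB1-negative libraries, 13.79 and 14.05 in untreated CCNB1-positive ones, 7.92 and 7.22 in selumetinib CCNB1-negative ones and 12.76 and 12.53 in selumetinib CCNB1-positive ones, so within each treatment it was higher in the libraries described as CCNB1-positive. By the titles, CCNB1 would instead be lower in the CCNB1-positive libraries of each treatment. Between 12696860 and 23916160 reads fell on genes in each library, fewest in the selumetinib CCNB1-negative group. All 8 epithelial markers passed the filter, while of 6 markers of blood, endothelial and connective tissue cells only COL1A1 did. MALAT1 took 0.303% to 0.386% of reads in untreated and 2.01% to 4.42% in treated libraries, and mitochondrial genes took 4.44% to 7.8% and 11.9% to 14.8%. The part of these shifts in the results below was not tested beyond the scaling alternatives.

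Homologous recombination repairs a broken DNA molecule by copying an intact sister, so cells use it mainly in S and G2, when a sister chromatid exists. Ends are resected by the MRE11 complex with CtIP, BRCA1 and BRCA2 with their partners load a strand-exchange recombinase on the exposed strand, and helicases and nucleases take the joined molecules apart. The Fanconi pathway unhooks interstrand crosslinks: a core complex with the E2 enzyme UBE2T attaches ubiquitin to FANCD2 and FANCI, and recombination then repairs the break that results. Many of these genes are transcribed in a cell cycle-dependent manner.

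In CCNB1-negative cells, selumetinib lowered 29 of the 39 genes and raised 4, with 6 not called (limma, adjusted p under 0.05 over all 14219 genes tested). Of all genes tested, 35.8% were lower and 38.2% higher in the same comparison. The median change of the 39 genes was -1.38 on the log2 scale against 0.05 for all genes tested, the changes ran from -3.95 for UBE2T to 2.01 for RAD51B, and 25 genes fell by more than 2-fold. In CCNB1-positive cells, 9 of the 39 were lower, 8 were higher and 22 were not called, where 27.3% of all genes were lower and 38% higher. The balance of these calls turned with the scaling, as 6 were lower and 12 higher when scaled to nuclear reads without MALAT1, and 10 lower and 6 higher with quantile normalization. The balance over all 14219 genes turned as well. Of these, 9290 were called with the nuclear scaling, 6676 of them higher, and 8370 with quantile normalization, 3978 of them higher. The 8 became 4 without untreated CCNB1-positive replicate 2 and 5 without selumetinib CCNB1-positive replicate 2. The median in CCNB1-positive cells was -0.14 against 0.17 for all genes, but 0.11 against 0.42 when scaled to nuclear reads without MALAT1, and the changes ran from -1.13 for NBN to 1.90 for RAD51B. The test of the difference between both responses called 25 of the 39 genes, each with the more positive response in CCNB1-positive cells, and 0 in the other direction, also 0 at an unadjusted p under 0.05 (limma). Of all genes, 4.99% were called with a more positive and 0.345% with a more negative response in CCNB1-positive cells. The median difference of responses was 1.28 against 0.11 for all genes. These are sums over sorted cells, so fewer cells that express a gene and less RNA per cell cannot be told apart. Nothing in the labels says that the 2 libraries of a group came from separate cultures, so the p-values measure the spread between these libraries only.

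**Figure D1:**
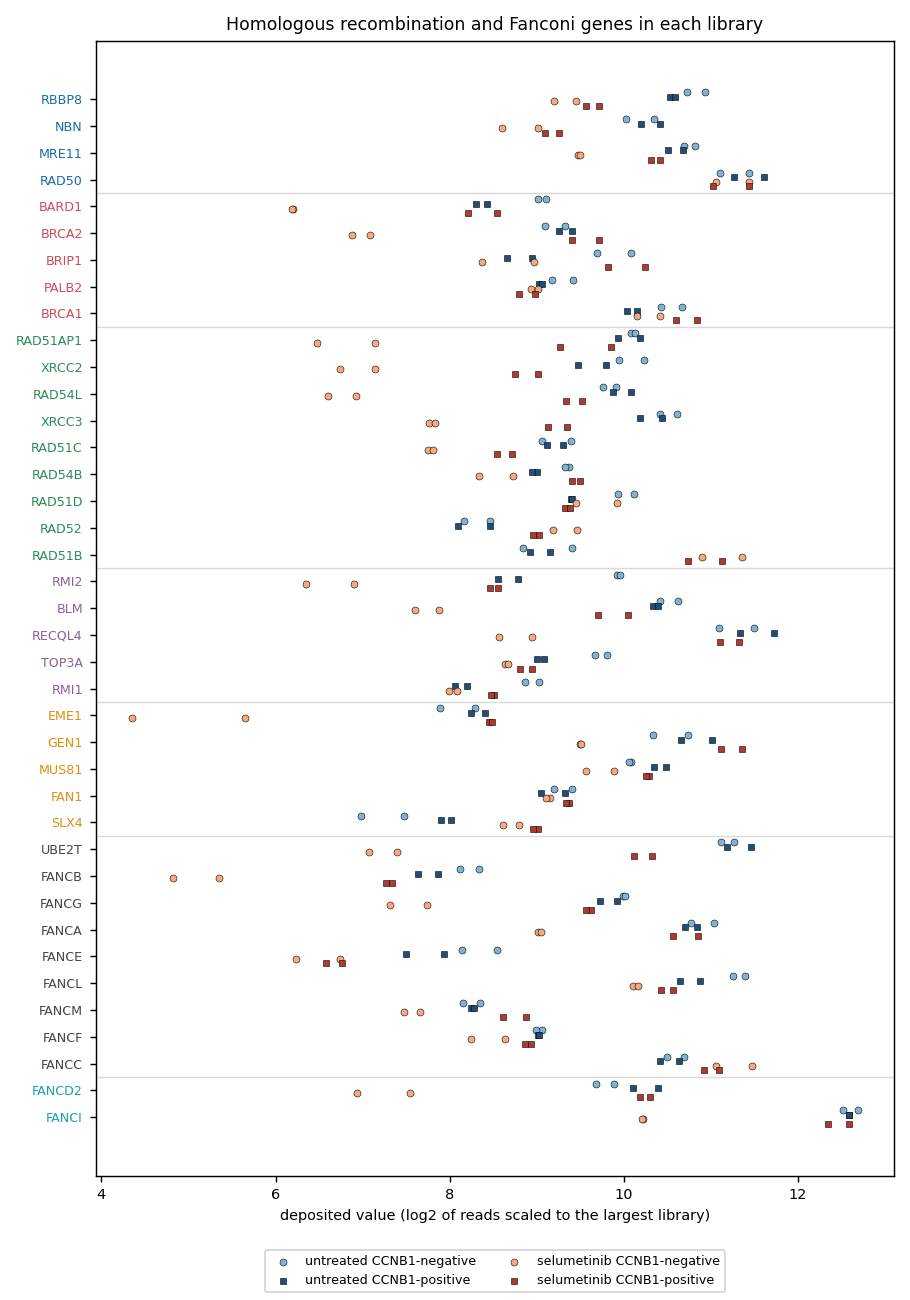
Deposited log2 value of each of the 39 genes in each of the 8 libraries, with rows grouped by role and ordered by the selumetinib change in CCNB1-negative cells. Circles are CCNB1-negative and squares CCNB1-positive libraries, pale or dark blue untreated and orange or red selumetinib. For UBE2T, EME1, FANCB and RAD54L the orange circles lie far to the left of the other 6 points, and for RAD51B both treated groups lie to the right.

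The library medians over the 39 genes were 9.99 and 9.93 in untreated CCNB1-negative cells and 9.73 and 9.47 in untreated CCNB1-positive cells, against 8.63 and 8.60 in selumetinib CCNB1-negative cells and 9.37 and 9.52 in selumetinib CCNB1-positive cells. The selumetinib CCNB1-negative libraries therefore stood below the other 6. Beside this, the summed level of the 10 G2/M markers was 1320 and 1100 RPM in untreated CCNB1-negative, 4530 and 4880 RPM in untreated CCNB1-positive, 170 and 128 RPM in selumetinib CCNB1-negative and 3370 and 3510 RPM in selumetinib CCNB1-positive libraries. The 10 G1/S markers summed to 1650 and 1810, 771 and 783, 154 and 148, and 319 and 351 RPM in the same order. Both marker sums were thus lowest where the repair genes were lowest, and the part of cell cycle stage in the changes of the repair genes was not tested.

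**Figure D2:**
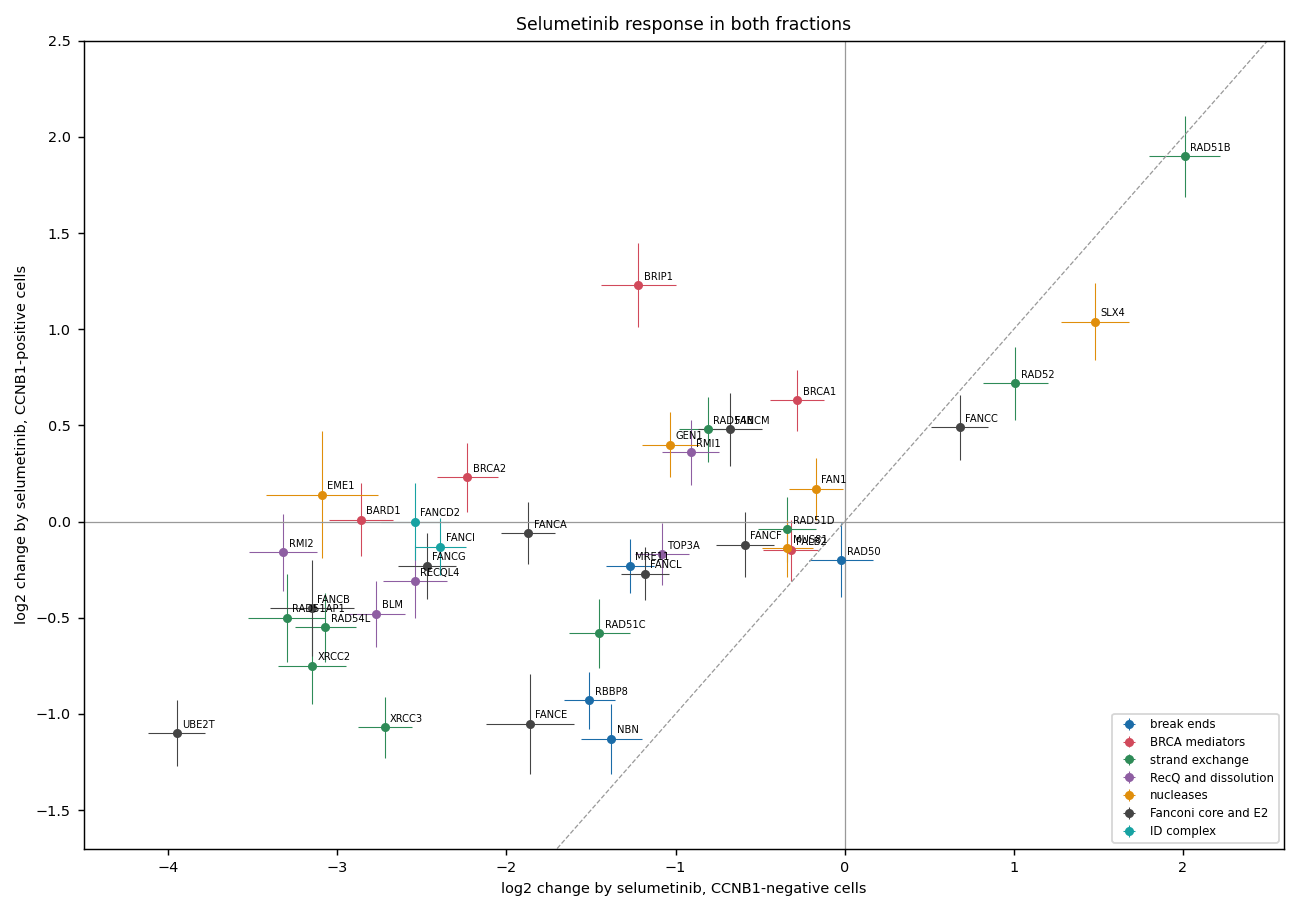
Selumetinib response of each gene in CCNB1-negative cells (horizontal axis, log2 change) and in CCNB1-positive cells (vertical axis, log2 change), coloured by role, with bars of 1 SE from limma and a dashed line of equal responses. Most points lie above the line, at the left of the plot and near 0 on the vertical axis, while RAD51B, SLX4, RAD52 and FANCC lie at the upper right near the line.

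Among the genes that process break ends, MRE11, NBN and RBBP8 fell in CCNB1-negative cells and RAD50 was not called. MRE11, the nuclease of the complex, stood at 10.82 and 10.69 in untreated CCNB1-negative, 10.68 and 10.51 in untreated CCNB1-positive, 9.47 and 9.50 in selumetinib CCNB1-negative and 10.31 and 10.41 in selumetinib CCNB1-positive libraries. It fell by 1.27 ± 0.14 (SE) on the log2 scale in CCNB1-negative cells (adjusted p = 2.3e-06), whereas -0.23 ± 0.14 was measured in the CCNB1-positive fraction and not called (adjusted p = 0.17), a difference of responses of 1.04 (adjusted p = 0.0057). Here and below, ± is the SE of the limma contrast, with 2 libraries per group, and confidence intervals are those of the contrast before adjustment. NBN, which brings the complex to ATM, and RBBP8, which encodes CtIP, the cofactor of resection, behaved otherwise and fell in both fractions. For NBN the change was -1.38 ± 0.18 (adjusted p = 1.1e-05) and -1.13 ± 0.18 (adjusted p = 0.00011), and for RBBP8 it was -1.51 ± 0.15 (adjusted p = 9.7e-07) and -0.93 ± 0.15 (adjusted p = 0.00014). The difference of responses was not called for either, with 95% confidence intervals of -0.31 to 0.80 for NBN and 0.11 to 1.04 for RBBP8. That of RBBP8 was called when sorted fractions of the same treatment and number were paired (limma, 0.58, adjusted p = 0.0063). RAD50, the ATPase of the complex, changed by -0.02 (95% confidence interval -0.44 to 0.39) and -0.20 (-0.62 to 0.21). GENCODE places a second gene (ENSG00000283782) on the same strand over 76.9% of the RAD50 exon bases. Its counts were close to those of RAD50, with 1506 and 1811 against 1361 and 1642 reads in the selumetinib CCNB1-negative libraries. Its responses were 0.08 (adjusted p = 0.69) and -0.09 (adjusted p = 0.7) by limma. The same reads may have been counted for both, so these genes cannot be separated here and RAD50 is uncertain.

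BRCA1 and its partner BARD1 form a ubiquitin ligase, PALB2 joins BRCA1 to BRCA2, BRCA2 loads the recombinase, and BRIP1 is a helicase that binds BRCA1. These 5 genes did not move together. BARD1 (ENSG00000138376, chromosome 2 of GRCh38, 214725646 to 214809683) had log2 values of 9.01 and 9.11 in untreated CCNB1-negative, 8.43 and 8.30 in untreated CCNB1-positive, 6.20 and 6.19 in selumetinib CCNB1-negative and 8.21 and 8.54 in selumetinib CCNB1-positive libraries. Its 2 selumetinib CCNB1-negative libraries, with 47 and 43 reads, stood well below the rest, and it fell by 2.86 ± 0.19 there (adjusted p = 2.7e-08) against a change of 0.01 ± 0.19 in CCNB1-positive cells (95% confidence interval -0.41 to 0.43). BRCA2 had the same form, with responses of -2.23 ± 0.18 (adjusted p = 1.2e-07) and 0.23 ± 0.18 (adjusted p = 0.27), the second of which was called when scaled to nuclear reads (0.49, adjusted p = 0.037). BRCA1 did not share the fall. Its values were 10.67 and 10.43, then 10.15 and 10.04 in untreated CCNB1-negative and CCNB1-positive libraries, and 10.15 and 10.41, then 10.60 and 10.84 in the treated ones. The change of BRCA1 in CCNB1-negative cells was -0.28 (95% confidence interval -0.62 to 0.06), while in CCNB1-positive cells it rose by 0.63 ± 0.16 (adjusted p = 0.0034). The difference of responses for BRCA1, 0.90 (adjusted p = 0.03), was lost without untreated CCNB1-negative replicate 1 (0.78, adjusted p = 0.093), untreated CCNB1-positive replicate 1 (0.96, adjusted p = 0.071) or 2 (0.85, adjusted p = 0.1), or selumetinib CCNB1-positive replicate 2 (0.78, adjusted p = 0.14), with the nuclear scaling (0.84, adjusted p = 0.069) and with no filter on low values (0.90, adjusted p = 0.076). The BRCA1 difference was called when sorted fractions of the same treatment and number were paired (limma, adjusted p = 0.00011). PALB2 was called in none of the 5 comparisons, its responses being -0.32 (95% confidence interval -0.67 to 0.03) and -0.15 (-0.51 to 0.20).

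BRIP1 moved in opposite directions in the 2 fractions. Its log2 value was 10.08 and 9.69 in untreated CCNB1-negative, 8.95 and 8.66 in untreated CCNB1-positive, 8.37 and 8.97 in selumetinib CCNB1-negative and 9.82 and 10.24 in selumetinib CCNB1-positive libraries, so treated and untreated libraries did not overlap in either fraction. BRIP1 fell by 1.22 ± 0.22 in CCNB1-negative cells (adjusted p = 0.0002) and rose by 1.23 ± 0.22 in CCNB1-positive cells (adjusted p = 0.00029), a difference of responses of 2.45 ± 0.31 (adjusted p = 0.00016). FANCM and RAD54B were also called lower in one fraction and higher in the other, with smaller changes.

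The strand-exchange group held 2 of the 4 members that rose in both fractions and several of those that fell furthest in CCNB1-negative cells. RAD51AP1, which helps the recombinase join strands, RAD54L, a motor protein that works with it, and the recombinase paralogs XRCC2 and XRCC3 had changes of -3.30 ± 0.23 (adjusted p = 3.5e-08), -3.07 ± 0.18 (adjusted p = 7e-09), -3.15 ± 0.20 (adjusted p = 1.4e-08) and -2.72 ± 0.16 (adjusted p = 9.1e-09) in CCNB1-negative cells. RAD54L stood at 9.91 and 9.76 in untreated CCNB1-negative libraries and at 6.60 and 6.93 in selumetinib CCNB1-negative ones, and at 10.08 and 9.87, then 9.34 and 9.52, in untreated and selumetinib CCNB1-positive libraries. In CCNB1-positive cells these genes stayed closer to the untreated level, but XRCC3 was lower by more than 2-fold, with a change of -1.07 ± 0.16 (adjusted p = 6.7e-05). XRCC2 changed there by -0.75 ± 0.20 (adjusted p = 0.0043) and RAD54L by -0.55 ± 0.18 (adjusted p = 0.014), both lost without untreated CCNB1-positive replicate 1 (-0.59, adjusted p = 0.052, and -0.44, adjusted p = 0.11), and RAD54L also without selumetinib CCNB1-positive replicate 1 (-0.46, adjusted p = 0.1) or with the nuclear scaling (-0.30, adjusted p = 0.17). The opposite-strand gene KLC1 covers 76.7% of the XRCC3 exon bases, and KLC1 rose by 0.44 in CCNB1-negative cells (adjusted p = 0.011). LRRC41 covers 19.9% of those of RAD54L on the opposite strand and was not called in that comparison (0.17, adjusted p = 0.33). In the selumetinib CCNB1-negative libraries KLC1 held 1840 and 1873 reads and XRCC3 held 138 and 134. The paper names a directional library kit, but the strand setting of the authors' counting is not given in the sources used here. Reads of such partners therefore cannot be told apart from those of the member.

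RAD51B, a recombinase paralog encoded over a long locus (ENSG00000182185, chromosome 14, 67819779 to 68730218), and RAD52, which anneals single strands, rose in both fractions. The log2 value of RAD51B was 9.40 and 8.84, then 9.15 and 8.92, in untreated CCNB1-negative and CCNB1-positive libraries and 10.90 and 11.36, then 10.74 and 11.13, in the treated ones. Treated libraries were above untreated ones in each fraction, with rises of 2.01 ± 0.21 (adjusted p = 1.4e-06) and 1.90 ± 0.21 (adjusted p = 5.6e-06), and the difference of responses was -0.11 (95% confidence interval -0.76 to 0.53). RAD52 rose by 1.01 ± 0.19 among CCNB1-negative cells (adjusted p = 0.00025) and by 0.72 ± 0.19 among CCNB1-positive ones (adjusted p = 0.0044), the latter lost without untreated CCNB1-positive replicate 2 (0.54, adjusted p = 0.063) or with quantile normalization (0.42, adjusted p = 0.06).

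RAD51B, RAD51C, RAD51D and XRCC2 encode 1 complex of recombinase paralogs, and its subunits changed by 2.01, -1.45, -0.34 and -3.15 in CCNB1-negative cells. RAD51C fell in both fractions, with changes of -1.45 ± 0.18 (adjusted p = 6e-06) and -0.58 ± 0.18 (adjusted p = 0.011), the second of which was lost without untreated CCNB1-positive replicate 2 (-0.49, adjusted p = 0.096) or selumetinib CCNB1-positive replicate 2 (-0.49, adjusted p = 0.087), or with the nuclear scaling (-0.33, adjusted p = 0.11). For RAD51D neither response was called (-0.34, 95% confidence interval -0.71 to 0.03, and -0.04, -0.41 to 0.33). The CCNB1-negative response of RAD51D ran from -0.58 to -0.03 over the alternatives, the former without selumetinib CCNB1-negative replicate 2. RAD54B, a relative of RAD54L, changed by -0.81 ± 0.17 in CCNB1-negative cells (adjusted p = 0.00062) and by 0.48 ± 0.17 in the CCNB1-positive fraction (adjusted p = 0.023). The second was lost when any 1 of the 4 CCNB1-positive libraries was left out, with changes between 0.43 and 0.53, and with quantile normalization (0.34, adjusted p = 0.14). FSBP lies on the same strand over 66.0% of the RAD54B exon bases and changed by -0.81 and 0.44, so these genes cannot be separated here.

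The dissolution group, in which the helicase BLM, the topoisomerase TOP3A and their cofactors RMI1 and RMI2 separate joined molecules without cutting them, fell in full in CCNB1-negative cells, together with RECQL4, a RecQ helicase that also acts when replication starts. RMI2 (ENSG00000175643, chromosome 16, 11249619 to 11381662) stood at 9.92 and 9.96 in untreated CCNB1-negative, 8.78 and 8.56 in untreated CCNB1-positive, 6.90 and 6.35 in selumetinib CCNB1-negative and 8.56 and 8.46 in selumetinib CCNB1-positive libraries. Its change of -3.32 ± 0.20 in CCNB1-negative cells (adjusted p = 1.1e-08) had no counterpart in CCNB1-positive cells (-0.16, 95% confidence interval -0.59 to 0.28), so that the responses differed by 3.16 ± 0.29 (adjusted p = 9.6e-06). RECQL4 and BLM also fell steeply (-2.54 ± 0.19, adjusted p = 6e-08, and -2.77 ± 0.17, adjusted p = 1.1e-08), and RMI1 and TOP3A less so (-0.91 ± 0.17, adjusted p = 0.0003, and -1.08 ± 0.16, adjusted p = 2.5e-05). In CCNB1-positive cells BLM alone of the 5 was called (-0.48 ± 0.17, adjusted p = 0.022), a call that was lost without untreated CCNB1-positive replicate 1 (-0.51, adjusted p = 0.063) or 2 (-0.46, adjusted p = 0.1) or selumetinib CCNB1-positive replicate 1 (-0.31, adjusted p = 0.21), with the nuclear scaling (-0.23, adjusted p = 0.26), with quantile normalization (-0.46, adjusted p = 0.051) and with a pseudocount of 0.1 or 1 RPM (-0.38, adjusted p = 0.067, and -0.37, adjusted p = 0.063). RMI1 was called higher there with the nuclear scaling (0.61, adjusted p = 0.0092), and TOP3A lower with quantile normalization (-0.38, adjusted p = 0.047). RMI1 was also called with a pseudocount of 0.1 or 1 RPM (0.46, adjusted p = 0.031, and 0.43, adjusted p = 0.032) and with limma-voom (0.47, adjusted p = 0.029). All 5 differences of responses were called. That of TOP3A (0.92, adjusted p = 0.025) was lost without either untreated CCNB1-negative replicate (1: 0.85, adjusted p = 0.084, and 2: 0.98, adjusted p = 0.063), either untreated CCNB1-positive one (0.96, adjusted p = 0.074, and 0.88, adjusted p = 0.091) or either selumetinib CCNB1-positive one (0.98, adjusted p = 0.06, and 0.86, adjusted p = 0.12), with the nuclear scaling (0.85, adjusted p = 0.055) and with quantile normalization (0.72, adjusted p = 0.066).

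The nuclease genes did not move as a group, with 2 of 5 lower and 1 higher in CCNB1-negative cells. EME1, the partner that MUS81 needs to cut branched DNA, had log2 values of 8.29 and 7.89 in untreated CCNB1-negative, 8.41 and 8.24 in untreated CCNB1-positive, 5.65 and 4.35 in selumetinib CCNB1-negative and 8.45 and 8.49 in selumetinib CCNB1-positive libraries. The selumetinib CCNB1-negative libraries held 32 and 12 EME1 reads and lay apart from each other as well as below the rest. EME1 fell by 3.09 ± 0.33 (adjusted p = 1.6e-06) there and changed by 0.14 ± 0.33 (95% confidence interval -0.57 to 0.86) in CCNB1-positive cells, and its difference of responses, 3.23 ± 0.47 (adjusted p = 0.0005), was the highest of the 39. That rank rests on selumetinib CCNB1-negative replicate 2, without which the difference was 2.58 for EME1 and 2.88 for RMI2. MUS81 itself was called in neither response (-0.34, adjusted p = 0.056, 95% confidence interval -0.67 to -0.01, and -0.14, -0.47 to 0.18). Its CCNB1-negative response was called with the replicate number as a block (limma, adjusted p = 0.036) and ran from -0.50 to -0.03 over the alternatives. Overlapping opposite-strand genes fell as well, since LRRC59, over 16.4% of the EME1 exon bases, changed by -2.62 and -1.88, and CFL1, over 13.9% of those of MUS81, by -1.51 and -0.91. GEN1, which cuts Holliday junctions, fell by 1.03 ± 0.17 in CCNB1-negative cells (adjusted p = 0.0001) and changed by 0.40 ± 0.17 in CCNB1-positive cells (adjusted p = 0.056), where it was called with the nuclear scaling (0.65, adjusted p = 0.0079) and with quantile normalization (0.55, adjusted p = 0.017). SLX4, the scaffold on which structure-specific nucleases assemble, rose in both. Its values of 7.48 and 6.98, then 8.01 and 7.90, in untreated CCNB1-negative and CCNB1-positive libraries lay below the 8.80 and 8.61, then 9.02 and 8.96, of the treated ones, with rises of 1.48 ± 0.20 (adjusted p = 1.6e-05) and 1.04 ± 0.20 (adjusted p = 0.00055). FAN1, a nuclease recruited to crosslinks, was called in none of the 5 comparisons (-0.17, 95% confidence interval -0.52 to 0.18, and 0.17, -0.18 to 0.52, for both responses), though its CCNB1-positive response was called with the nuclear scaling (0.42, adjusted p = 0.045).

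The Fanconi core complex is built from subcomplexes, by which its genes are given here. Of the 9 core and E2 genes, 8 fell in CCNB1-negative cells and FANCC rose. UBE2T (ENSG00000077152, chromosome 1, 202331657 to 202341980), the E2 enzyme, stood at 11.12 and 11.26 in untreated CCNB1-negative, 11.19 and 11.46 in untreated CCNB1-positive, 7.40 and 7.07 in selumetinib CCNB1-negative and 10.12 and 10.32 in selumetinib CCNB1-positive libraries. Its change of -3.95 ± 0.17 in CCNB1-negative cells (15.5-fold lower, adjusted p = 8.8e-10) was the steepest fall of the 39, and UBE2T fell among CCNB1-positive cells as well (-1.10 ± 0.17, adjusted p = 6.8e-05). FANCB and FANCL, which share the subcomplex whose ubiquitin ligase is FANCL, had CCNB1-negative responses of -3.15 ± 0.25 (adjusted p = 1e-07) and -1.18 ± 0.14 (adjusted p = 5.2e-06), and FANCA and FANCG, which share another, had -1.87 ± 0.16 (adjusted p = 1.5e-07) and -2.47 ± 0.17 (adjusted p = 3.6e-08). None of these 4 was called in CCNB1-positive cells, where the changes ran from -0.45 for FANCB to -0.06 for FANCA, though FANCB was called lower with quantile normalization (-1.14, adjusted p = 0.0017), and all 4 differences of responses were called, though that of FANCL (0.92, adjusted p = 0.016) was lost without untreated CCNB1-negative replicate 1 (0.85, adjusted p = 0.056), untreated CCNB1-positive replicate 2 (0.80, adjusted p = 0.091) or selumetinib CCNB1-positive replicate 1 (0.85, adjusted p = 0.083). FANCB was sparse, with 18 and 24 reads in the selumetinib CCNB1-negative libraries.

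FANCC, FANCE and FANCF form the remaining subcomplex, and for none of these 3 was the difference of responses called (-0.19, 95% confidence interval -0.70 to 0.31, 0.81, 0.02 to 1.60, and 0.47, -0.06 to 0.99). FANCC rose in both fractions, by 0.68 ± 0.17 (adjusted p = 0.0021) and 0.49 ± 0.17 (adjusted p = 0.019), the second lost without untreated CCNB1-positive replicate 2 (0.38, adjusted p = 0.15) or selumetinib CCNB1-positive replicate 2 (0.40, adjusted p = 0.13). FANCE fell in both (-1.86 ± 0.26, adjusted p = 1.9e-05, and -1.05 ± 0.26, adjusted p = 0.0029). FANCF fell by 0.59 ± 0.17 in CCNB1-negative cells (adjusted p = 0.007), which was lost without selumetinib CCNB1-negative replicate 2 (-0.40, adjusted p = 0.059) or with the nuclear scaling (-0.28, adjusted p = 0.17), and changed by -0.12 in CCNB1-positive cells (95% confidence interval -0.49 to 0.25). FANCM, the translocase that anchors the core complex to DNA, had responses of -0.68 ± 0.19 (adjusted p = 0.0047) and 0.48 ± 0.19 (adjusted p = 0.036). The first was lost with the nuclear scaling (-0.37, adjusted p = 0.1). Its rise in CCNB1-positive cells was lost with quantile normalization (0.15, adjusted p = 0.52) and without untreated CCNB1-positive replicate 1 (0.47, adjusted p = 0.12) or 2 (0.50, adjusted p = 0.11) or selumetinib CCNB1-positive replicate 2 (0.35, adjusted p = 0.24), and its difference of responses (1.17, adjusted p = 0.018) without the same 3 libraries (1.15, 1.18 and 1.03) or untreated CCNB1-negative replicate 1 (1.07, adjusted p = 0.064).

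FANCD2 and FANCI, the pair that the core complex modifies, fell alike. FANCD2 (ENSG00000144554, chromosome 3, 10026414 to 10101930) stood at 9.89 and 9.68 in untreated CCNB1-negative, 10.39 and 10.10 in untreated CCNB1-positive, 6.94 and 7.54 in selumetinib CCNB1-negative and 10.18 and 10.30 in selumetinib CCNB1-positive libraries. FANCI stood at 12.69 and 12.52, 12.59 and 12.58, 10.22 and 10.21, and 12.34 and 12.59 in the same order. For both, the selumetinib CCNB1-negative libraries lay below all others, while treated and untreated CCNB1-positive libraries overlapped. The changes there were -2.54 ± 0.20 for FANCD2 (adjusted p = 9.3e-08) and -2.39 ± 0.15 for FANCI (adjusted p = 1.1e-08), and in CCNB1-positive cells the changes were 0.00 (95% confidence interval -0.43 to 0.43) and -0.13 (-0.44 to 0.19).

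Promoter windows were found in RefSeq (GRCh38.p14) for 34 of the 39 genes, as 45 windows of 250 bases before to 50 after a transcription start. They are shown because most of these genes moved together and because promoters of cell cycle genes often carry these letters. Searched on both strands were the E2F-type words TTTCCCGC, TTTGGCGC, TTTCGCGC and TTTGCCGC, the words TTTGAA and TTCGAA of the cell cycle homology region (CHR), and CCAAT. No word contains another. An E2F-type word was present in 6 of the 34 genes (17.6%, against 3.99% of all 27305 genes with a window), a CHR word in 4 (11.8% against 19.5%) and CCAAT in 15 (44.1% against 39.7%). XRCC3 held 5 CCAAT words, at -216, -171, -108, -66 and -33 from its start, BLM held 3, and the single E2F-type words of FANCD2 and XRCC2 began at -2 and 22. Of the genes that rose in both fractions, FANCC held E2F-type and CHR words, and the windows of RAD51B, RAD52 and SLX4 held none. The RAD51B windows, from 67823291 and 67823342, lie inside the gene, past its first base at 67819779. Bases before that first base were not searched, so the absence of words covers only these windows. Windows of FANCC and RBBP8 also lie inside the extent of their genes. Among the genes that fell in CCNB1-negative cells, the windows of BARD1, BRCA2, EME1, FANCB, FANCE, FANCG, FANCL, RAD51C, RBBP8 and TOP3A held none. The lines give 120 bases before to 30 after the start in the direction of transcription, with the words in capitals, for XRCC3 at chr14:103715422-103715571 (minus strand), BLM at chr15:90717226-90717375 (plus strand), FANCD2 at chr3:10026317-10026466 (plus strand), XRCC2 at chr7:152676112-152676261 (minus strand) and SLX4 at chr16:3611577-3611726 (minus strand). A match is a description of letters and says nothing of binding.
XRCC3: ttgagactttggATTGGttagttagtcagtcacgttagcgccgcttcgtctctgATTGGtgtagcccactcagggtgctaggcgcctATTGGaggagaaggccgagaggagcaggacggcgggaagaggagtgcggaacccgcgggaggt
BLM: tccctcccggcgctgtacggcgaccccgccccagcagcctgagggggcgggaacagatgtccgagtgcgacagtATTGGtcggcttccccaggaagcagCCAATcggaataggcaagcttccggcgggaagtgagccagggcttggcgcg
FANCD2: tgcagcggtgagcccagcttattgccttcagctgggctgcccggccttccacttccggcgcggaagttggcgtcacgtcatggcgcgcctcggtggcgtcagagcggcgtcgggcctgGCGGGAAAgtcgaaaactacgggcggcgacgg
XRCC2: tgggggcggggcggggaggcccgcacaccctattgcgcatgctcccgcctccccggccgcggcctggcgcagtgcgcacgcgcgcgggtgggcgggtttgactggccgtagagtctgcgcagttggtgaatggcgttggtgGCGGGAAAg
SLX4: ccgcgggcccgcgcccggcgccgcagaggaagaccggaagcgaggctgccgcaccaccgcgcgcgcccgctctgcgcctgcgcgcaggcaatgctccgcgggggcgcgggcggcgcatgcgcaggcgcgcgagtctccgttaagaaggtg

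Between the fractions of untreated cells, 4 of the 39 genes were lower in CCNB1-positive cells and 0 higher (limma, adjusted p under 0.05). At that threshold 1.51% of all genes were lower and 1.36% higher. At an unadjusted p under 0.05, 11 of the 39 were lower and 3 higher, but the share of all genes there was not counted. The 4 were BRIP1 (-1.08 ± 0.22, adjusted p = 0.015), RMI2 (-1.27 ± 0.20, adjusted p = 0.0022), RMI1 (-0.82 ± 0.17, adjusted p = 0.019) and TOP3A (-0.70 ± 0.16, adjusted p = 0.025). TOP3A, RMI1 and RMI2 are partners of BLM in dissolution, and BLM itself changed by -0.16 (95% confidence interval -0.52 to 0.21). TOP3A stood at 9.81 and 9.67 in untreated CCNB1-negative and at 9.08 and 9.00 in untreated CCNB1-positive libraries, and RMI1 at 9.03 and 8.86 against 8.20 and 8.06, so the fractions did not overlap for either. Only RMI2 kept its call without any 1 library. BRIP1 lost it without untreated CCNB1-negative replicate 1 (-0.89, adjusted p = 0.13) or untreated CCNB1-positive replicate 2 (-0.94, adjusted p = 0.12), RMI1 without untreated CCNB1-negative replicate 1 (-0.73) or 2 (-0.90) or untreated CCNB1-positive replicate 2 (-0.74), and TOP3A without any 1 of the 4 untreated libraries (-0.77 to -0.63), so that 1 gene was called lower without untreated CCNB1-negative replicate 1, 2 genes without its replicate 2 and 1 without untreated CCNB1-positive replicate 2. Quantile normalization also ended the calls of BRIP1 (-0.97, adjusted p = 0.079), RMI1 (-0.66, adjusted p = 0.079) and TOP3A (-0.60, adjusted p = 0.087), and BRIP1 was lost with no filter on low values (-1.08, adjusted p = 0.059). With each pair of sorted fractions (same treatment, same number) as a block, 10 genes were lower and 3 higher, the latter FANCD2 (0.46, adjusted p = 0.02), MUS81 (0.35, adjusted p = 0.035) and SLX4 (0.73, adjusted p = 0.0034), while 8.78% of all genes were lower and 4.75% higher in that fit.

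Between the fractions of selumetinib-treated cells, 23 of the 39 genes were higher in CCNB1-positive cells and 0 lower, also 0 lower at an unadjusted p under 0.05 (limma). Of all genes, 13.8% were higher and 7.87% lower. The median difference was 0.92 for the 39 genes against 0.02 for all genes, and the range was -0.33 to 3.47. The largest differences were those of EME1 (3.47 ± 0.33, adjusted p = 3.8e-06), FANCD2 (3.00 ± 0.20, adjusted p = 6.7e-08), UBE2T (2.98 ± 0.17, adjusted p = 1e-08) and RAD51AP1 (2.75 ± 0.23, adjusted p = 9.6e-07). BRIP1 and RMI2, lower in the CCNB1-positive fraction of untreated cells, were higher in that of treated cells, by 1.36 ± 0.22 (adjusted p = 0.00073) and 1.89 ± 0.20 (adjusted p = 1.4e-05). The difference of MUS81 (0.54, adjusted p = 0.022) was lost without selumetinib CCNB1-negative replicate 2 (0.38, adjusted p = 0.16) or selumetinib CCNB1-positive replicate 1 (0.53, adjusted p = 0.12) or 2 (0.56, adjusted p = 0.088), and that of RAD51C (0.85, adjusted p = 0.0046) without selumetinib CCNB1-positive replicate 1 (0.77, adjusted p = 0.055). With the sorted pairs as a block, 29 genes were higher and 3 lower, where 27% of all genes were higher and 19.9% lower. In that fit the difference of responses was called for 27 of the 39, each with the more positive response in CCNB1-positive cells. Of all genes, 19.3% were called in that direction and 7.81% in the other. The genes added by this block were RAD51C (0.87, adjusted p = 0.0022) and RBBP8 (0.58, adjusted p = 0.0063). FANCL (adjusted p = 9.6e-05), FANCM (adjusted p = 0.0005) and TOP3A (adjusted p = 0.0006) kept their calls in it.

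**Figure D3:**
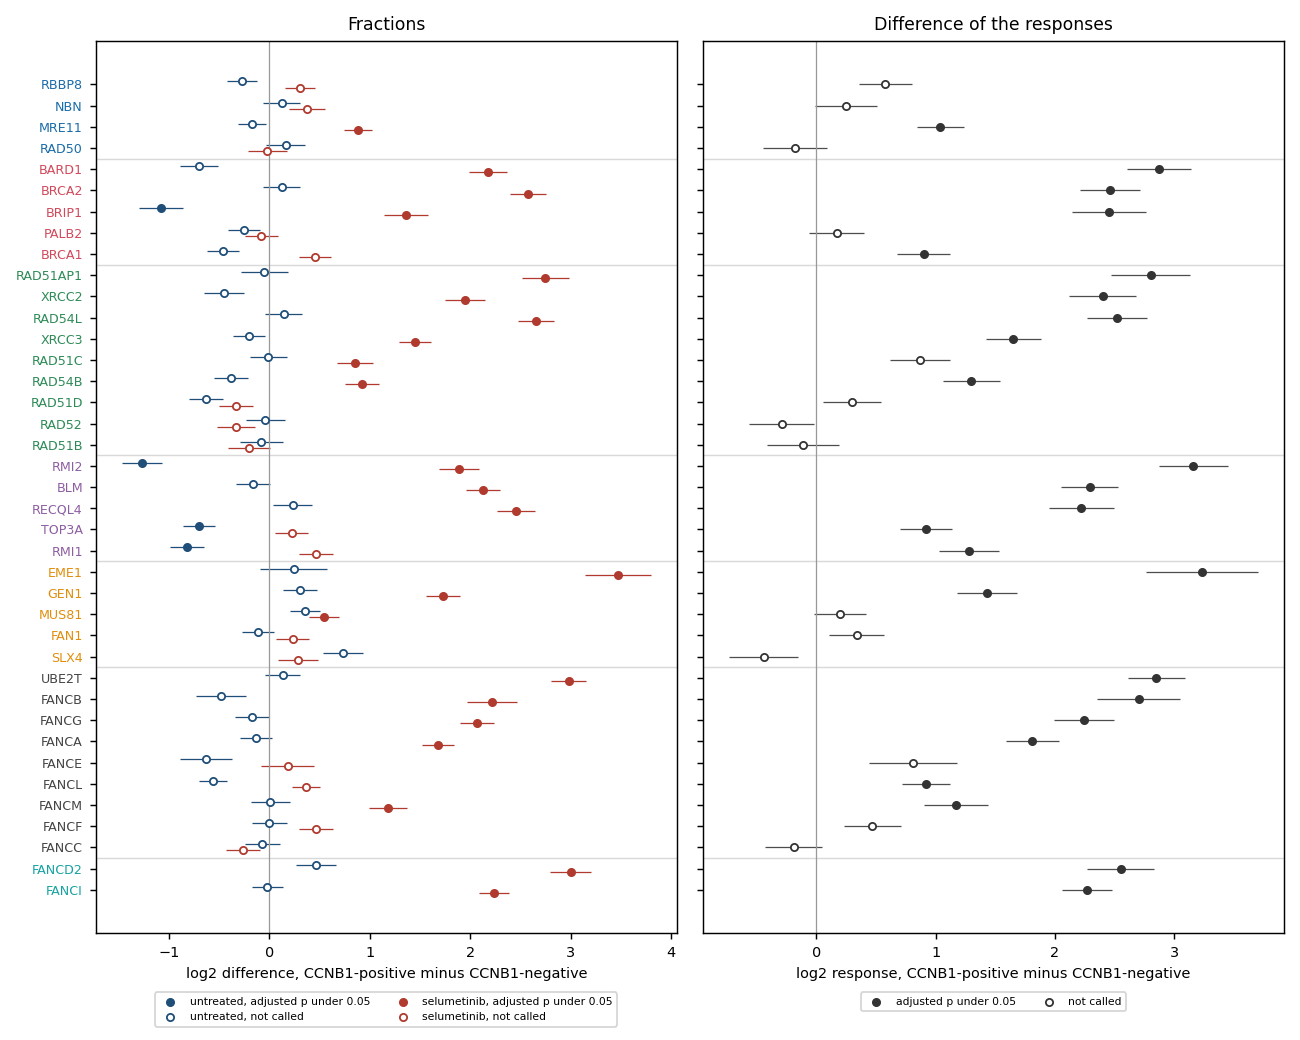
Left, log2 value of CCNB1-positive less CCNB1-negative cells, gene by gene, untreated in blue and selumetinib-treated in red. Right, difference between the selumetinib responses of the fractions. Bars are 1 SE from limma and filled points have an adjusted p under 0.05. The red points of 23 genes are filled and lie to the right of 0, and the filled points at the right number 25.

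Genes of the same pathways outside the 39 had medians nearer to 0. Members and lists were chosen with earlier results of these data known, so the choice may shape this difference, which was not tested. Of 47 other recombination and crosslink repair genes, 26 were lower and 11 higher in CCNB1-negative cells, with a median of -0.48, and 14 were lower and 9 higher in CCNB1-positive cells, with a median of 0.00. The difference of responses was called for 18 of these 47, all with the more positive response in CCNB1-positive cells. Of all genes, 35.8% were lower and 38.2% higher in CCNB1-negative cells, and 27.3% and 38% in CCNB1-positive cells. For the difference of responses, 4.99% of all genes were called with the more positive response in CCNB1-positive cells and 0.345% with the more negative one. EXO1, a resection nuclease, PSMC3IP, a cofactor of strand exchange, and RPA3, a subunit of the single-strand binding protein, had the largest changes in CCNB1-negative cells (-3.69, -3.12 and -2.56) and changed by -1.03 (adjusted p = 0.00036), -0.88 (adjusted p = 0.00052) and -0.56 (adjusted p = 0.03) in CCNB1-positive cells. Among 16 genes of end joining, the pathway that seals breaks without a template, 7 were lower and 6 higher in CCNB1-negative cells, 5 lower and 7 higher in CCNB1-positive cells, and 0 were called for the difference of responses. SHLD1, a shieldin subunit that limits resection, rose by 2.39 and 1.60 (adjusted p = 4.8e-07 and 3.8e-05), while XRCC6, which encodes Ku70, changed by -2.11 and -1.44 (adjusted p = 1.2e-07 and 9.1e-06). The 10 G1/S and the 10 G2/M markers were all lower in CCNB1-negative cells, with medians of -3.67 and -3.33, and 9 of each were lower in CCNB1-positive cells, with medians of -1.22 and -0.96. The median of the 39 genes in CCNB1-positive cells, -0.14, thus lay above those of both marker lists, a difference that was not tested.

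**Figure D4:**
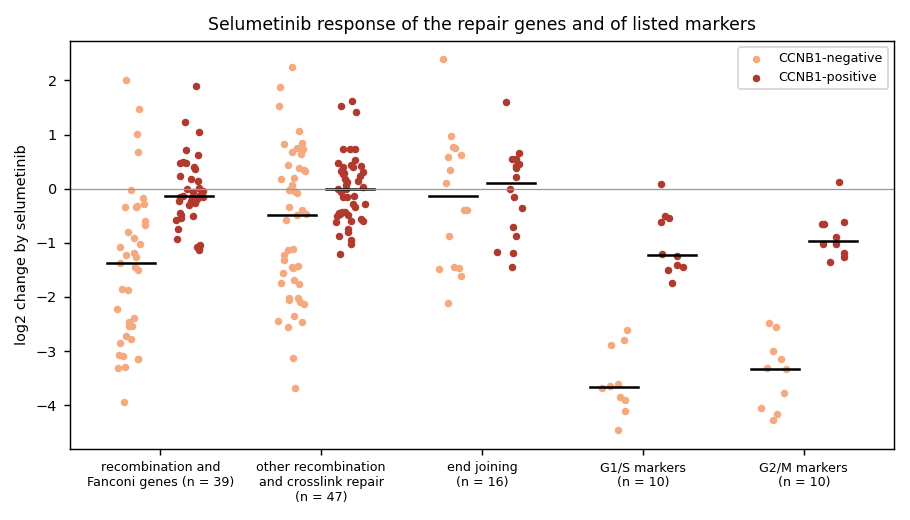
Selumetinib response (log2 change) of the 39 genes, of 47 other recombination and crosslink repair genes, of 16 end joining genes and of 10 G1/S and 10 G2/M markers, in CCNB1-negative cells (orange) and CCNB1-positive cells (red). Points are genes, spread sideways for legibility, and black lines are medians, which for the 39 genes are -1.38 and -0.14.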

How the data were processed

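Trimming by the authors used Trim Galore 0.5.0 and mapping to GRCh38 used HISAT2 2.1.0, and genes were then quantified in SeqMonk. The authors deposited log2 values of reads scaled to the largest library, with a gene without a read set to 0.9 reads. Annotation release and strand setting are not given in the sources used here. In each library, 100% of genes with a read gave back a whole number of reads (relative tolerance 1e-05). All 8 value columns were used.

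Genes averaging 1 RPM or more were tested with limma 3.58.1 (R 4.3.3, mean-variance trend, 1 coefficient per group, all 8 libraries), with Benjamini-Hochberg adjustment over the 14219 genes tested. Of the tests foreseen for counts, linear or log2 values, the one for log2 values applied. Other steps used Python 3.11.15 with pandas 2.3.3 and numpy 2.4.6. In a simulation, reads of all 8 libraries were drawn from the mean over all groups with 1 fixed dispersion. Of 14851 genes tested, 195 were changed, in the selumetinib CCNB1-negative group only. There 100% of 4-fold and 83% of 2-fold changes were recovered, with 11 of 190 calls false. Far more genes were called in the real comparison, so these rates may not hold for it.

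The members and lists were chosen with earlier results of these data known. All 39 members could be named, and at most 3 genes of each other list, those with the largest change in CCNB1-negative cells. Of the 47 other recombination genes, HROB was matched by gene ID. Replicate numbers come from the labels. Deviations from the group means correlated at 0.35 and 0.43 between the fractions of 1 treatment with the same number, and between -0.09 and 0.08 otherwise, so the sorted fractions appear paired. The fit above has no block, and a fit with these pairs as a block was run as an alternative. Replicates differed by more than sampling noise (chi-square per gene 15.6 to 30.2). Exon overlaps are from GENCODE 44. Depth bounds counting error only, since reads carry no molecular identifiers.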

Additional observations from a re-analysis of the deposited data

Results flagged for a closer look

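The fractions responded differently to selumetinib for 25 of the 39 genes, by a test of the difference itself (limma interaction, adjusted p under 0.05), with 4.99% of all genes called in that direction. Each difference is the log2 response of CCNB1-positive cells minus that of CCNB1-negative cells. It was 3.23 for EME1, 3.16 for RMI2, 2.87 for BARD1, 2.85 for UBE2T, 2.80 for RAD51AP1, 2.70 for FANCB, 2.55 for FANCD2, 2.52 for RAD54L, 2.46 for BRCA2 and 2.45 for BRIP1. It was 2.40 for XRCC2, 2.29 for BLM, 2.27 for FANCI, 2.24 for FANCG, 2.22 for RECQL4, 1.81 for FANCA, 1.65 for XRCC3, 1.43 for GEN1, 1.30 for RAD54B and 1.28 for RMI1. It was 1.17 for FANCM, 1.04 for MRE11, 0.92 for FANCL, 0.92 for TOP3A and 0.90 for BRCA1. In every refit that tested them 21 of the 25 kept the call (EME1 and FANCB were not tested with the filter of 10 RPM), and BRCA1, FANCL, FANCM and TOP3A lost it in at least 1. The 10 G1/S and 10 G2/M markers were all called in the same direction.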

How the results depend on the processing

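No single gene of the 39 changed the direction of a called value under any alternative run. In CCNB1-negative cells, 29 or 30 genes were lower without any 1 library, and 27 of the 29 stayed lower in every refit that tested them (EME1, FANCB and FANCE were not tested with the filter of 10 RPM). FANCF and FANCM did not: with scaling to nuclear reads without MALAT1 they changed by -0.28 (adjusted p = 0.17) and -0.37 (adjusted p = 0.1). The median of the 39 genes there moved from -1.38 to -1.06 with that scaling, to -1.25 with a filter of 10 RPM (36 genes tested), to -1.23 with a pseudocount of 0.1 RPM, to -1.20 with 1 RPM and to -1.23 with limma-voom, and lay between -1.54 and -1.34 without 1 library. That scaling moved the median of all genes from 0.05 to 0.36 in CCNB1-negative and from 0.17 to 0.42 in CCNB1-positive cells, and quantile normalization moved it to -0.08 and -0.07, so the median of the 39 less that of all genes was -1.43, -1.42 and -1.28 in CCNB1-negative and -0.31, -0.31 and -0.09 in CCNB1-positive cells in the deposited, nuclear and quantile scalings. In CCNB1-positive cells the median of the 39 changed sign to 0.11 with the nuclear scaling. There 4 genes were lower and 3 higher by at least 2-fold, 5 were higher at an adjusted p under 0.01, and 4 to 9 were higher without 1 library, the fewest without untreated CCNB1-positive replicate 2, and 5 without selumetinib CCNB1-positive replicate 2. Between untreated fractions the 4 genes lower became 1 with quantile normalization, 1 at an adjusted p under 0.01, 2 by at least 2-fold, 10 with the sorted-pair block and 1 to 6 without 1 library, and the 0 higher became 1 with the replicate number as a block, 3 with the sorted-pair block and 0 to 1 without 1 library. Between treated fractions the 0 lower became 3 with the sorted-pair block and 0 to 1 without 1 library, and the median lay between 0.86 and 1.11 without 1 library. The median difference of responses was 1.16 with a pseudocount of 1 RPM and 1.10 to 1.32 without 1 library. With the replicate number as a block no called gene lost its call. Of all genes called, quantile normalization moved the share that was higher from 58.1% to 47.5% in CCNB1-positive cells, from 47.5% to 64.8% between untreated fractions, from 63.6% to 47.9% between treated fractions and from 93.5% to 70.9% for the difference of responses. The cause was not tested for any of these. Depth limits EME1 and FANCB most, which had 12 to 32 reads in selumetinib CCNB1-negative libraries.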
